A study of Mus musculus with 12 samples.

Results

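Gfap encodes glial fibrillary acidic protein, the main intermediate filament of mature astrocytes, and 3 of the 45037 probe sets measured here report it. They are 1426508_at, 1426509_s_at and 1440142_s_at, taken because the authors' deposited lists name Gfap for them, not by their values. The lists tie 1426508_at and 1426509_s_at to the same sequence record and 1440142_s_at to another. The ending _s_at marks a probe set whose probes can match more than 1 transcript. Which exons each probe set reads was not analysed here.

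The study compared Ercc1-/- mice (KO) with Ercc1+/+ littermates (WT), all bred from FVB and C57BL/6 crosses, at postnatal day 21. Hippocampus and cerebellum were each profiled on 3 KO and 3 WT Affymetrix mouse whole-genome arrays, 12 in all, as whole tissue. Ercc1 is a nuclease subunit that acts in nucleotide excision repair and crosslink repair, and the knockout is constitutive, so every cell type of these mice lacks it. No label ties an array number to a particular animal, so the p-values below measure the spread between these arrays, which may be technical.

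As background, Gfap filaments support the shape and processes of astrocytes, and a rise of Gfap is the classic sign of reactive astrocytes after injury or in disease. Transcription of the gene is driven by STAT3 downstream of interleukin-6 family cytokines, together with Notch, bone morphogenetic protein and nuclear factor I signals. In hippocampus most astrocytes carry Gfap. In cerebellum it is found in white matter astrocytes and in Bergmann glia, the radial astrocytes that accompany Purkinje cells.

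The sequence around the start of Gfap is shown because STAT factors, which drive the gene, recognise a short palindrome. It covers 250 bases before and 50 after the RefSeq start (GRCm38.p6, chr11:102897151-102897450, minus strand, written 5′ to 3′ along the gene), and capitals mark the match to TTCNNNGAA.
Gfap: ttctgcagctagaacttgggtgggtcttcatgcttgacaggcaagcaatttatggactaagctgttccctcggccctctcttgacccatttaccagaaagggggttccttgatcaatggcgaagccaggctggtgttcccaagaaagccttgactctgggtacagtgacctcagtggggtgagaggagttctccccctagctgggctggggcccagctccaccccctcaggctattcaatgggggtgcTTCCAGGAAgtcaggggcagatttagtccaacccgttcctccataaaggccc
The motif was searched on both strands, which read alike for a palindrome, and it occurred 1 time. The match begins at position -2 from the RefSeq start and so spans that start. Of 32851 RefSeq promoters of the same length, 8.30% hold at least 1 match. TTGGC, the short recognition site of nuclear factor I, had 0 matches on either strand, against a match in 46.7% of promoters. These are letter matches in 1 window, not measured binding.

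The genotype check held on every array. Ercc1 intensity lay between 49.8 and 70.3 on the 6 KO arrays and between 115.2 and 223.4 on the 6 WT arrays, on the linear scale of the deposited values. Array medians lay between 154.4 and 168.2. The 2 regions were deposited in separate tables, and no source used here says how their arrays were scaled against each other.

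In hippocampus, Gfap was higher in KO on 2 of its probe sets with no overlap of the groups, and the third overlapped. None of the 3 passed the test over all probe sets. For 1426508_at the intensity was 3058, 2829 and 3203 on KO arrays 1 to 3, and 1889, 1886 and 1942 on WT arrays 1 to 3. Every KO array lay well above every WT array, and the WT arrays were almost equal. The KO mean was 3030 ± 189 and the WT mean 1906 ± 31.6 (SD, n = 3 each), a ratio of 1.59.

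The probe set 1440142_s_at read 955.1, 902.4 and 1011 on KO arrays 1 to 3, and 461.1, 391.6 and 464.7 on WT arrays 1 to 3. Its lowest KO array was far above its highest WT array. The 3 KO arrays averaged 956.1 ± 54.2 and the 3 WT arrays 439.1 ± 41.2 (SD), a ratio of 2.18. On both probe sets the arrays stood in the same order, KO 3, KO 1, KO 2, WT 3, WT 1 and WT 2 from high to low.

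The groups were less clearly apart on the remaining probe set. For 1426509_s_at the intensity was 3236, 2452 and 3455 on KO arrays 1 to 3, and 3101, 2088 and 2056 on WT arrays 1 to 3. WT array 1 stood above KO array 2 and near the other KO arrays, so the groups overlapped. The 3 KO arrays averaged 3048 ± 528 and the 3 WT arrays 2415 ± 594 (SD), a ratio of 1.26.

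The limma differences, KO minus WT on the log2(intensity + 32) scale, were 1.07 ± 0.10 (SE) for 1440142_s_at, 0.66 ± 0.08 for 1426508_at and 0.34 ± 0.19 for 1426509_s_at in hippocampus. Their adjusted p-values were 0.141, 0.254 and 1.0, over 27022 probe sets. Of those, 0 passed (0%), and 1003 (3.71%) had an unadjusted p under 0.05. The largest Gfap difference was exceeded by that of 5 of the 27022 probe sets and the smallest by that of 353. Every KO array was above every WT array for 4.48% of probe sets, a property shared by 1440142_s_at and 1426508_at. The exact permutation p, two-sided, was 0.1 for these 2, the smallest that 3 against 3 arrays allow, and 0.2 for 1426509_s_at.

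In cerebellum, Gfap was higher in KO on all 3 probe sets, with no overlap of the groups on any. For 1426508_at the intensity was 1440.0, 1444 and 1546 on KO arrays 1 to 3, and 716.0, 493.0 and 495.5 on WT arrays 1 to 3. Here the KO arrays were almost equal and WT array 1 stood above the other WT arrays. The KO mean was 1477 ± 60.1 and the WT mean 568.2 ± 128.0 (SD, n = 3 each), a ratio of 2.60.

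The probe set 1426509_s_at read 1899, 1539 and 1599.8 on KO arrays 1 to 3, and 844.7, 687.9 and 665.0 on WT arrays 1 to 3. The KO arrays were all far above the WT arrays, in contrast to the overlap that this probe set had in hippocampus. The KO mean was 1679 ± 193 and the WT mean 732.5 ± 97.8 (SD, n = 3 each), a ratio of 2.29.

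The ratio of means was highest on 1440142_s_at, for which the intensity was 356.3, 415.2 and 387.3 on KO arrays 1 to 3, and 160.8, 93.1 and 123.4 on WT arrays 1 to 3. The 3 KO arrays averaged 386.3 ± 29.5 and the 3 WT arrays 125.8 ± 33.9 (SD), a ratio of 3.07. That WT mean is dim: it lay below the medians of the WT cerebellum arrays (154.7 to 168.2), and 42.6% of probe sets had a lower one. The log2 difference of this probe set was 1.64 with 1 added to the intensity and 1.26 with 64 added.

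The limma differences in cerebellum were 1.43 ± 0.16 (SE) for 1440142_s_at, 1.35 ± 0.15 for 1426508_at and 1.16 ± 0.13 for 1426509_s_at. Their adjusted p-values were 0.107, 0.102 and 0.102. None of the 27022 probe sets passed (0%) and 1169 (4.33%) had an unadjusted p under 0.05. The differences of 8, 10 and 15 probe sets were larger than those of 1440142_s_at, 1426508_at and 1426509_s_at. The exact permutation p was 0.1 for each, the smallest that 3 against 3 arrays allow, and 5.3% of probe sets had every KO array above every WT array. In whole tissue, more astrocytes and more Gfap RNA per astrocyte cannot be told apart.

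**Figure D1:**
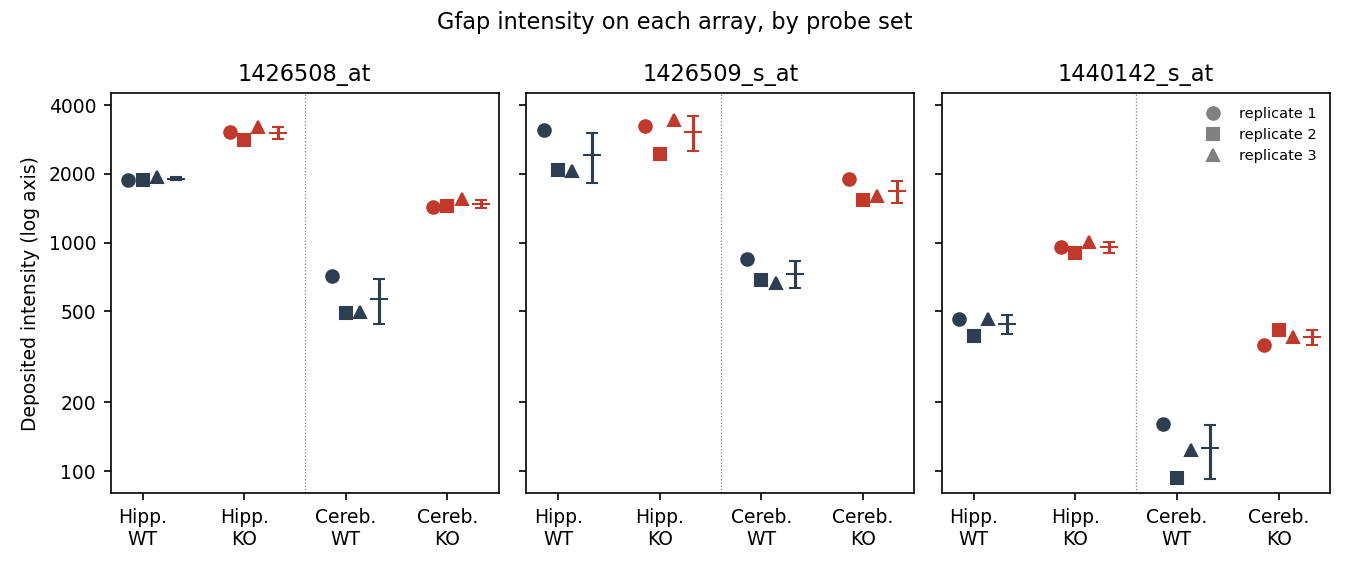
Deposited intensity of Gfap (log axis) on each of the 12 arrays, 1 panel per probe set, with symbols for the replicate number and, beside each group, the mean with its SD (n = 3). KO arrays (red) lie above WT arrays (dark) in every region and probe set except for 1426509_s_at in hippocampus, where WT array 1 at 3101 exceeds KO array 2 at 2452.

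Over all arrays of a region, 1440142_s_at had the largest log2 difference, then 1426508_at, then 1426509_s_at. In cerebellum this order did not hold under other settings. With a pseudocount of 64 the first 2 changed places (1.26 for 1440142_s_at and 1.30 for 1426508_at). Within the 3 cerebellum arrays of positive score on the leading residual component (KO 1, WT 1 and WT 3) the order was reversed in full. The values there, which rest on 1 KO array, were 1.17 for 1440142_s_at, 1.23 for 1426508_at and 1.30 for 1426509_s_at. Within the 3 of negative score (2 KO, 1 WT) the values were 1.79, 1.54 and 1.15. The component, the largest shared pattern left after group means are removed, held 49.5% of the residual variance in cerebellum. The authors' deposited table for hippocampus lists 1440142_s_at with a fold of 2.18 (unadjusted p = 0.000326) and 1426508_at with 1.59 (p = 0.00430), ranked 7 and 14 by fold among 126 entries higher in KO. It does not hold 1426509_s_at. The authors' deposited table for cerebellum lists all 3, with folds of 3.07, 2.60 and 2.29, ranked 2, 4 and 7 among 267 entries higher in KO.

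The knockout effect was larger in cerebellum than in hippocampus on each probe set by its log2 estimate, but the difference did not pass the test on any. The hippocampus effect minus the cerebellum effect was -0.82 for 1426509_s_at (95% interval -1.36 to -0.28, adjusted p = 1.0). It was -0.69 for 1426508_at (95% interval -1.07 to -0.31, adjusted p = 0.986). For 1440142_s_at it was -0.36 with an interval that includes 0 (95% interval -0.79 to 0.08, adjusted p = 1.0). These are limma values of 1 fit over the 12 arrays, adjusted over 23283 probe sets, of which 1 passed (0.00429%) and 731 had an unadjusted p under 0.05. The intervals are not adjusted. On the linear scale, where the regions come from separate tables and were not tested against each other, the KO minus WT difference for 1426508_at was 1124 in hippocampus and 908.7 in cerebellum. Its order turned with quantile normalization over all 12 arrays, to 981.4 and 1119. For 1426509_s_at the deposited differences were 632.9 and 946.7 and for 1440142_s_at 516.9 and 260.5, an order that was the same after that normalization (558.4 and 1160.2, and 432.3 and 302.8).

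**Figure D2:**
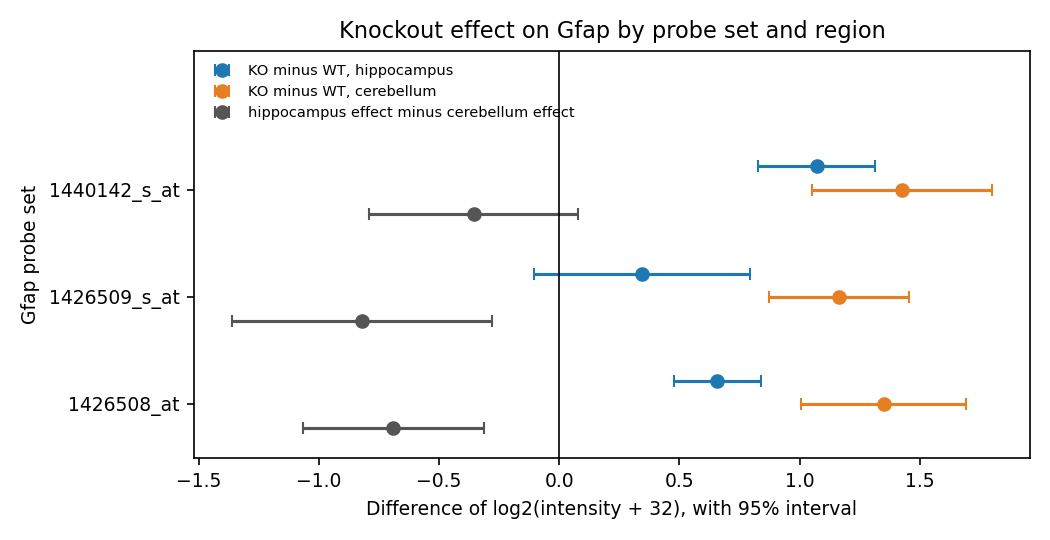
Limma differences of log2(intensity + 32) with unadjusted 95% intervals (horizontal axis) for each Gfap probe set (vertical axis): KO minus WT in hippocampus (blue, n = 3 per group), in cerebellum (orange, n = 3 per group), and the hippocampus effect minus the cerebellum effect (grey, 12 arrays). The blue interval of 1426509_s_at and the grey interval of 1440142_s_at include 0.

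The order of the 4 groups was given by the deposited values as KO hippocampus, WT hippocampus, KO cerebellum and WT cerebellum from high to low, on each probe set. The neighbours that overlapped were KO and WT hippocampus on 1426509_s_at, and WT hippocampus and KO cerebellum on 1440142_s_at. Levels of separate tables were not tested against each other. The place of KO cerebellum rests on scaling: with quantile normalization over all 12 arrays, added after the data were seen, KO cerebellum had a mean of 1774 and WT hippocampus 1624 on 1426508_at. On 1440142_s_at the same scaling gave 427.5 in KO cerebellum and 403.3 in WT hippocampus, and on 1426509_s_at 2022 and 2064. WT cerebellum stayed lowest on each probe set, at 654.6, 861.3 and 124.7 for 1426508_at, 1426509_s_at and 1440142_s_at.

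Whether the probe sets changed by unequal amounts was read from the difference between 2 probe sets on the same array, in which a scale factor of the array nearly cancels (the pseudocount keeps it from cancelling in full). In hippocampus, 1440142_s_at minus 1426508_at was -1.63 ± 0.02 on KO arrays and -2.04 ± 0.12 on WT arrays (SD, n = 3 each), with no overlap. The KO over WT ratio of 1440142_s_at was 1.33 times that of 1426508_at on this scale. The difference of 1440142_s_at and 1426509_s_at was -1.63 ± 0.19 on KO arrays and -2.35 ± 0.30 on WT arrays (SD, n = 3 each), again with no overlap. For 1426508_at against 1426509_s_at the groups overlapped, with 0.00 ± 0.17 on KO arrays and -0.31 ± 0.34 on WT arrays.

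In cerebellum each of the 3 pairs overlapped between KO and WT. The change of the within-array difference was 0.08 for 1440142_s_at minus 1426508_at, 0.26 for 1440142_s_at minus 1426509_s_at and 0.19 for 1426508_at minus 1426509_s_at. Over the 6 comparisons, 3 pairs in 2 regions, the exact permutation p, two-sided, lay between 0.1 and 0.5 and the adjusted p between 0.3 and 0.5. With 3 arrays a group this test cannot go below 0.1, so unequal change was not shown by it in either region.

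**Figure D3:**
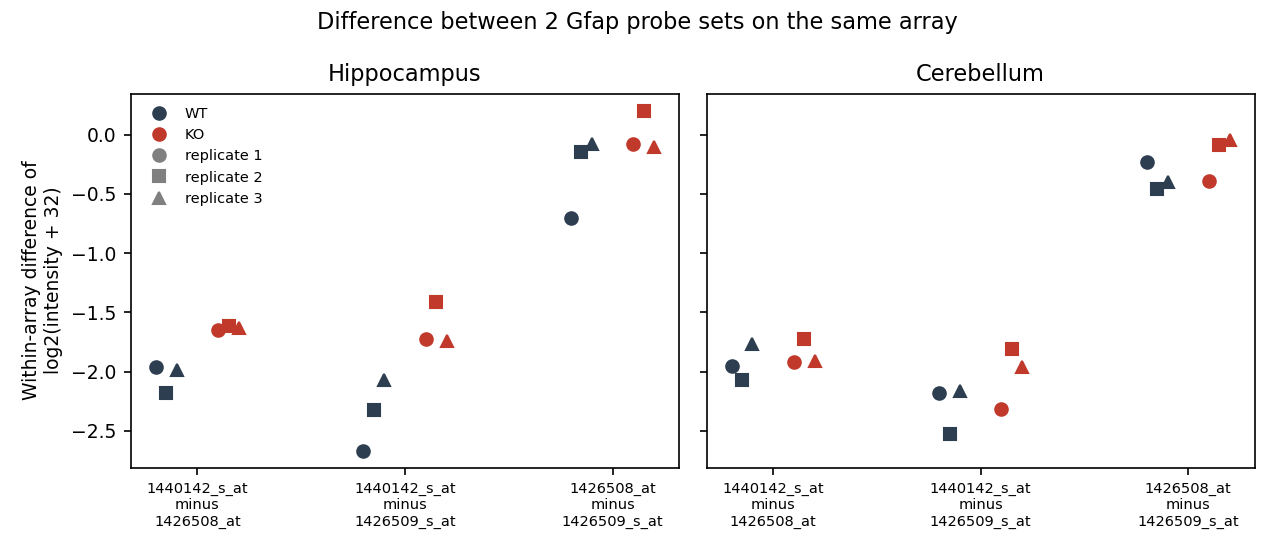
Difference of log2(intensity + 32) between 2 Gfap probe sets on the same array (vertical axis) for 3 pairs, in WT (dark) and KO (red) arrays of each region. In hippocampus KO and WT do not overlap for the 2 pairs that hold 1440142_s_at, and in cerebellum they overlap for each pair.

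The spread between arrays differed among the probe sets and groups. In WT hippocampus the SD of log2 values was 0.02 for 1426508_at, 0.13 for 1440142_s_at and 0.33 for 1426509_s_at. In KO hippocampus it was 0.09, 0.08 and 0.26 in the same order. In WT cerebellum the order changed: 1440142_s_at and 1426508_at had 0.31 and 0.29 and 1426509_s_at 0.18, and in KO cerebellum the values were 0.10, 0.06 and 0.16. No test was made on SDs of 3 arrays. Read against the other probe sets of the hippocampus fit, 8.89% had a smaller residual SD than 1426508_at, 30.0% a smaller one than 1440142_s_at and 87.7% a smaller one than 1426509_s_at. In cerebellum these shares were 75.7%, 80.5% and 61.7%.

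After group means were removed, 1 component held 69.7% of the residual variance of hippocampus, with KO 1, KO 3 and WT 1 at scores of 18.1, 12.9 and 38.3 and WT 2, WT 3 and KO 2 at -12.7, -25.6 and -31.0. On 1426509_s_at the same arrays deviated from their group means by 0.10, 0.19 and 0.38, and by -0.18, -0.20 and -0.30, with the sign of the score on all 6 arrays. The deviations of 1426508_at lay between -0.10 and 0.08 and did not follow the sign, with WT 1 at -0.01.

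The component was then used as a covariate. It was estimated from the residuals of the same arrays, so the differences could not move and the summed residual variance had to fall. With it the SE of the hippocampus difference of 1426509_s_at fell from 0.19 to 0.07, and the adjusted p was 0.142. In that fit 8 of 27022 probe sets passed. Among them were 1440142_s_at and 1426508_at, with an adjusted p of 0.0120 and 0.0279, and these calls are no independent evidence. Within the arrays of positive score (2 KO, 1 WT) KO minus WT was 0.11 for 1426509_s_at, and within those of negative score (1 KO, 2 WT) it was 0.24, against 0.34 over all arrays. For 1440142_s_at the values within the sides were 1.04 and 1.03, and for 1426508_at 0.72 and 0.56. The part of this component in the regional contrast of 1426509_s_at was not tested.

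A second array that stood apart was KO cerebellum array 1, with a Gapdh 3'/5' control ratio of 1.50, a measure of RNA integrity and labelling, against 0.999 to 1.20 on the other 5 cerebellum arrays. Its Actb 3'/5' ratio, 2.47, stood less apart, with 2.20 on WT 1, 2.09 on WT 3 and 1.71 to 1.84 on the other 3. It was the highest KO array on 1426509_s_at and the lowest KO array on 1426508_at and 1440142_s_at. Without it the cerebellum differences were 1.07, 1.37 and 1.48 for 1426509_s_at, 1426508_at and 1440142_s_at, close to those over all arrays. KO 1, WT 1 and WT 3, the cerebellum arrays of positive component score, had the highest ratios of both controls. Their Gapdh ratios were 1.50, 1.11 and 1.20, against 0.999 to 1.08 on the arrays of negative score. The part of RNA integrity in the component was not tested. Such control ratios were not analysed here for hippocampus. Without WT cerebellum array 1, the highest WT array on each probe set, the difference of 1426508_at was 1.52 and passed (adjusted p = 0.0328). It was the 1 probe set of 27022 that did.

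**Figure D4:**
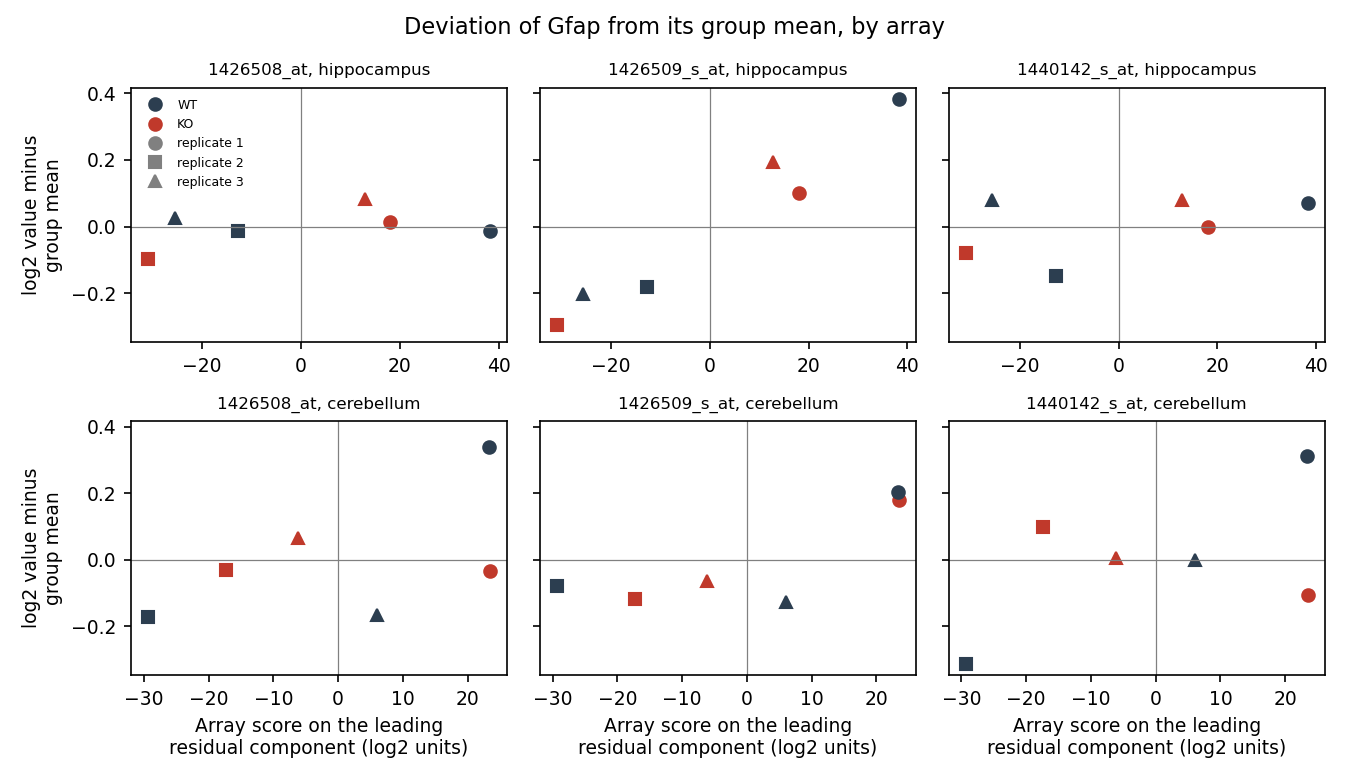
Deviation of each Gfap probe set from its group mean on the log2 scale (vertical axis) against the score of the array on the leading residual component of its region (horizontal axis), with KO in red, WT in dark and a symbol per replicate number. In hippocampus 1426509_s_at follows the score, with WT 1 at 0.38 and KO 2 at -0.30, while 1426508_at stays between -0.10 and 0.08.

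Other astrocyte genes showed differences of mixed size and sign. Of 15 astrocyte markers, 5 including Gfap could be named, each because the authors had listed it in 1 region or the other, so their directions are not independent evidence. In cerebellum the other 4 had a median log2 difference of 0.65 (all probe sets: -0.02). For 3 of 4 every KO array was above every WT array (all probe sets: 5.3%). Gjb6, a connexin of astrocyte gap junctions, had 0.88 ± 0.12 (SE), the aldolase gene Aldoc 0.79 ± 0.11 and the glutamine synthetase gene Glul 0.51 ± 0.09. Aqp4, the water channel of astrocyte endfeet, had -0.05 ± 0.10 with overlapping groups.

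In hippocampus the median of these 4 genes was 0.23 (all probe sets: 0.01). Without overlap, 2 of 4 were above (all probe sets: 4.48%) and 1 was below. Aldoc had 0.59 ± 0.09 (SE), Gjb6 0.40 ± 0.10 and Glul 0.06 ± 0.06. Aqp4 was at 3234 ± 241 in KO and 4417 in WT on average, a difference of -0.45 ± 0.08, opposite in sign to Gfap. Every KO array was below every WT array for 4.44% of all probe sets here and for 4.17% in cerebellum. None of the 4 passed in either region. The median in hippocampus was 0.0039 when all named probe sets of these genes were used in place of the brightest.

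Of 41 genes listed as reactive astrocyte genes, 3 beside Gfap could be named. C4b, a complement component, had 0.66 ± 0.10 (SE) in hippocampus and 0.27 ± 0.14 in cerebellum, the reverse of the regional order of Gfap. Serping1, an inhibitor of the complement protease C1, had 0.37 ± 0.14 and 0.48 ± 0.11, and Tm4sf1, a membrane protein of the tetraspanin-like family, had 0.04 ± 0.15 and 0.27 ± 0.10. The list median was 0.37 in hippocampus and 0.27 in cerebellum, and 0 members passed. Gdf10, a growth factor gene typical of Bergmann glia, was the only named gene of 5 Bergmann glia markers. It had 0.34 ± 0.14 in hippocampus and 0.52 ± 0.11 in cerebellum. The authors listed C4b in hippocampus alone, and Serping1, Tm4sf1 and Gdf10 in cerebellum alone. Each had its larger difference in the region that listed it, so these regional orders are no independent evidence. No regulator of Gfap transcription (0 of 30) and no other filament gene of the 7 listed was named, so these genes, Stat3 and Vim among them, were not analysed here.

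Markers of other cell types were read on the same arrays, and none passed the test in either region. These genes could be named because the authors had listed them for a KO and WT difference, in cerebellum all 7 microglia markers and 3 of the 4 oligodendrocyte markers, so their counts are built in and are no independent evidence. In cerebellum the 7 named microglia markers of 15 had every KO array above every WT array (all probe sets: 5.3%), with a median of 0.93, and their summed intensity ranged from 3886 to 4280 in KO and from 1936 to 2477 in WT. In hippocampus the median was 0.15, 3 of 7 had every KO array above every WT array (all probe sets: 4.48%), 4 of 7 overlapped, and the summed intensity ranged from 11832 to 12341 in KO and from 9931 to 11179 in WT. The 4 named oligodendrocyte markers of 10 had medians of opposite sign in the regions, -0.33 in hippocampus and 0.33 in cerebellum. Their summed intensity ranged from 11606 to 12111 in KO and from 12273 to 17365 in WT hippocampus, and from 11054 to 13215 in KO and from 8262 to 9563 in WT cerebellum. The lowest group mean among these markers was 104.8, for Laptm5 in WT cerebellum. Their part in the Gfap result was not tested.

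**Figure D5:**
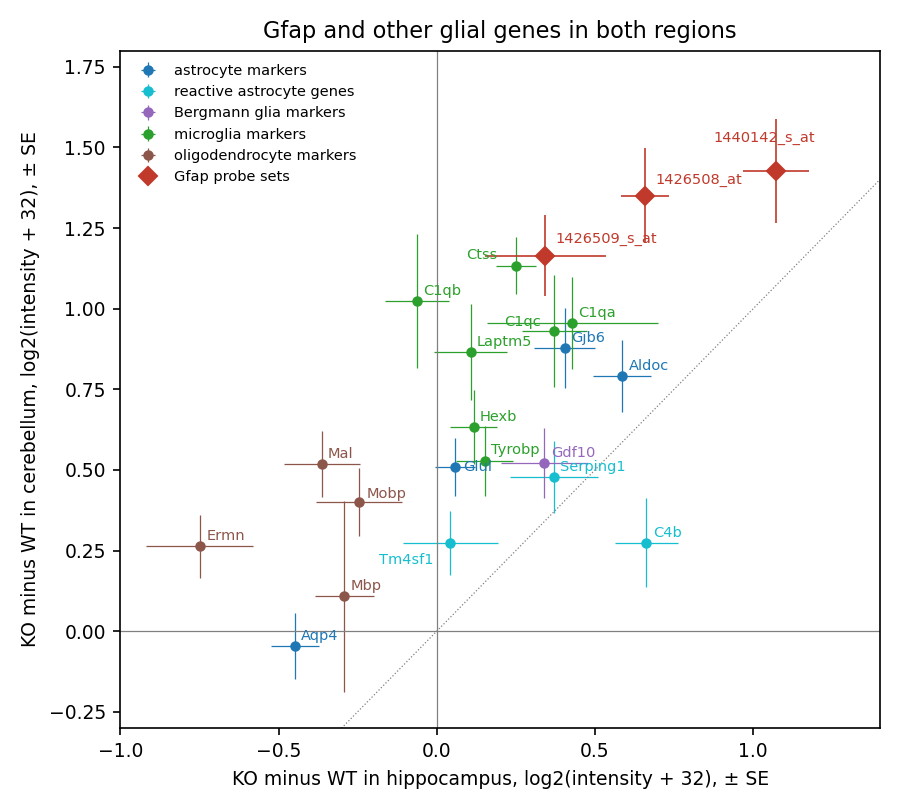
KO minus WT of log2(intensity + 32) in hippocampus (horizontal axis) and cerebellum (vertical axis), each with its SE, for the 3 Gfap probe sets (red diamonds) and the named genes of 5 glial lists, with the dotted line marking equal effects. The Gfap probe sets lie highest, at 1.16 to 1.43 in cerebellum, with the microglia marker Ctss near the lowest of them at 1.13 ± 0.09. C4b is the named gene below the line, and Aqp4 lies below 0 in both regions.

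The genes whose pattern was most like that of Gfap were found by Pearson r with the mean of its 3 probe sets over 12 arrays, each array minus the mean of its region. The candidates were 499 probe sets of 452 genes, all picked by the authors for a KO and WT difference on these same arrays, so a high r is built in and is given as a description. The highest were Maob, which encodes the monoamine oxidase of astrocytes, at 0.97, the microglial adaptor gene Tyrobp at 0.96, the glutathione transferase gene Gsta4 at 0.95, the complement gene C1qb at 0.95 and the heat shock gene Hspa2 at 0.95. Within hippocampus alone r was lower for each, between 0.79 for Hspa2 and 0.94 for Maob over 6 arrays, than within cerebellum, between 0.98 and 0.99. The authors listed the probe sets of Tyrobp, Gsta4, C1qb and Hspa2 in cerebellum alone and that of Maob in both regions. A higher r in cerebellum is thus favoured by that choice and is no independent evidence. For C1qb the probe set with the highest r had a log2 difference of 0.18 ± 0.09 (SE) in hippocampus and 0.60 ± 0.10 in cerebellum. The brightest named probe set of C1qb, used among the microglia markers, had -0.06 ± 0.10 in hippocampus, with overlapping groups, and 1.02 ± 0.21 in cerebellum. The r of C1qb thus holds for the probe set picked by its r. Maob had a log2 difference of 0.25 ± 0.08 (SE) in hippocampus and 0.51 ± 0.10 in cerebellum, the same regional order as Gfap at smaller size. The lowest r belonged to Galnt13, a glycosyltransferase gene, at -0.95, the protease gene Pappa at -0.90 and Usf3 at -0.90.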

How the data were processed

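RNA of hippocampus and cerebellum was measured on 12 arrays, 3 per region and genotype. The authors deposited linear intensity values made with dChip, per the series design text; no source used here gives its version, background step or array scaling. The authors also deposited group means with standard errors, given as signal in intensity units, and short lists with a signed fold score and an unadjusted p-value per probe set, per the file headers. The regional tables and the table of the whole series were equal (largest difference 0). No sample column was left out (0), and 0 pairs of arrays were identical. The number of arrays limits the precision.

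Values were analysed as log2(intensity + 32), a scale on which the change of dim probe sets is understated. In each region the fit took probe sets whose mean log2 value exceeded the 40th percentile, and all 3 Gfap probe sets did in both. KO was compared with WT per region with limma 3.58.1 (lmFit, eBayes with an intensity trend) in R 4.3.3, and the regional difference in 1 fit over 12 arrays, with Benjamini-Hochberg adjustment over all probe sets kept and a threshold of 0.05. Exact permutation tests used SciPy 1.17.1.

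Gene names come from the authors' lists: of 610 probe sets, 538 have 1 symbol after updating with the RefSeq table (GRCm38.p6), 21 several and 51 none. For each other gene of the lists the brightest of its named probe sets was used. For the genes most and least like Gfap it was the named probe set with the highest or lowest r. The members and lists were chosen with earlier results of these data known. Named were Gfap, Ercc1, the measured list members, and the 5 genes most like Gfap and 3 least like it. Every member of the astrocyte, reactive astrocyte and Bergmann glia lists that could be named is given by value. Microglia members are given by counts, medians and summed intensity, and oligodendrocyte members by medians and summed intensity. The neuron, fibroblast and red blood cell lists (1, 2 and 1 named genes) are given by value in the closing section. No endothelial marker was named (0). Replicate numbers were not used to pair arrays in the main fits (see the closing section).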

Additional observations from a re-analysis of the deposited data

How the results depend on the processing

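On the log2 scale the direction of the knockout effect and of the regional difference held for each Gfap probe set under every alternative run. On the linear scale the KO minus WT difference of 1440142_s_at was larger in hippocampus. For 1426508_at the linear order turned with the normalization. In hippocampus 6 of 27022 probe sets passed with 1 fit over all 12 arrays, 1440142_s_at among them (1.07, adjusted p = 0.0346). With the residual component as a covariate 8 of 27022 passed. Among those were 1440142_s_at (1.07, adjusted p = 0.0120) and 1426508_at (0.66, adjusted p = 0.0279), but the fall of residual variance in that fit was built in. In cerebellum 34 of 27022 probe sets passed with 1 fit over all 12 arrays. All 3 of Gfap were among them: 1426508_at (1.35, adjusted p = 0.00136), 1426509_s_at (1.16, adjusted p = 0.0361) and 1440142_s_at (1.43, adjusted p = 0.00208). With each array left out in turn, the hippocampus effects ranged from 0.62 to 0.71 for 1426508_at, 0.24 to 0.53 for 1426509_s_at (highest without WT 1) and 0.996 to 1.11 for 1440142_s_at. The cerebellum effects ranged from 1.26 to 1.52, 1.07 to 1.27 and 1.27 to 1.58. The only Gfap call made was 1426508_at without WT 1 (1.52), a fit in which 1 of 27022 probe sets passed. The regional difference ranged from -0.86 to -0.61, -0.92 to -0.63 and -0.51 to -0.20, with the adjusted p lowest at 0.0825. In cerebellum 1440142_s_at minus 1426508_at reversed with a pseudocount of 64 (-0.043). Its ranges over left-out arrays were 0.01 to 0.16, and for the other pairs there 0.15 to 0.40 and 0.12 to 0.29; in hippocampus they were 0.34 to 0.45, 0.57 to 0.87 and 0.12 to 0.43. The 60th percentile filter left out 1440142_s_at in cerebellum. Over all named probe sets, the astrocyte median in hippocampus was 0.0039 and the microglia median in cerebellum 0.79. Without adjustment 13 of 23 list genes had a p under 0.05 in hippocampus (all probe sets: 3.71%) and 19 of 23 in cerebellum (all probe sets: 4.33%), against 0 and 0 with it, but the 23 could be named only because the authors listed them for a difference on these arrays.

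With the replicate block the Gfap effects were the same and none passed (hippocampus adjusted p 0.635 to 1.0, cerebellum 0.179 to 0.365, regional difference 0.787 to 1.0). Whether equal numbers belong together could not be settled, since unequal numbers were not set beside them. Deviations of equal numbers correlated between KO and WT at 0.68, 0.31 and -0.50 in hippocampus and at 0.06, 0.34 and -0.24 in cerebellum. Across regions they correlated at 0.58, 0.54 and -0.27 for KO and at -0.02, 0.13 and -0.19 for WT. With equal numbers taken as mice in a random block, the regional differences were -0.69, -0.82 and -0.36 (adjusted p = 0.827, 0.970 and 1.0).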

Other observations

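Markers of cells that no list above describes had these log2 differences, KO minus WT. Neurod1, a transcription factor of granule neurons and the 1 named gene of 13 neuron markers, had 0.42 ± 0.09 (SE) in hippocampus and 0.02 ± 0.07 in cerebellum. The collagen gene Col1a2 and the matrix gene Fmod, 2 of 6 fibroblast markers, had -0.07 ± 0.28 and 0.03 ± 0.18 in hippocampus and 0.37 ± 0.10 and 0.68 ± 0.12 in cerebellum. Alas2, the heme synthesis gene of red blood cells and 1 of 3 markers, had -0.64 ± 0.25 and -0.54 ± 0.14. None passed the adjusted threshold in limma.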
